A study of Ovis aries with 16 samples.

Results

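This account covers 4 genes of angiotensin, mineralocorticoid and oxidant signalling in the left ventricle of fetal sheep: AGTR1 and AGTR2, which encode the type 1 and type 2 angiotensin II receptors (AT1 and AT2), NR3C2, which encodes the mineralocorticoid receptor, and NOX5, which encodes an NADPH oxidase. Every non-control probe that the array files assign to one of these genes by name or description was taken, which gave 7 of the 15008 probes on the array and 4 of the 869 genes named there: 1 for AGTR1 and 2 for each of AGTR2, NR3C2 and NOX5. The study compared twin fetuses on Agilent sheep arrays, with 1 array for each of 16 fetuses from 8 twin pairs, so 4 arrays stood in each of 4 groups. In the angiotensin II group (twin sets 5 to 8), the fetus received angiotensin II, the peptide hormone that activates both receptors, for 5 days. In the losartan group (twin sets 1 to 4), it received losartan, an antagonist of AT1, for 5 days. Each treated fetus had an untreated twin, and the labels do not say whether that twin carried catheters or a vehicle infusion. Surgery took place at 125 to 126 days of a 145-day gestation. The labels call the infusions daily in places and continuous in others, and they name the tissue with and without the septum. No strain, sex or allele is given for any group.

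Angiotensin II is released by angiotensin-converting enzyme (ACE) and signals in the heart mainly through AT1, a Gq-coupled receptor tied to contraction, growth and matrix production. AT2 is abundant in many fetal tissues and opposes several AT1 responses. Angiotensin II also drives aldosterone secretion, and aldosterone and cortisol both bind the mineralocorticoid receptor, a nuclear receptor present in cardiomyocytes. NOX5 is a calcium-activated oxidase that makes superoxide, known mainly from human vascular cells, and rodents lack the gene.

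None of the 7 probes passed the test in either arm (limma, adjusted p under 0.05 over 8970 tested probes). AGTR1 had estimates near 0 in both arms, with wide scatter between twin pairs. AGTR2 and NOX5 had estimates below 0 with angiotensin II and above 0 with losartan, and NR3C2 had the opposite signs. The lowest unadjusted p among the members belonged to NOX5 probe 1, with lower values in the angiotensin II fetus of all 4 twin sets.

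The probe sequences are shown because they define what each value reports and because the probe pairs differ in how independent they are. The array lists no genome position for any of the 7 probes, so positions are given as bases of the source transcript from the array files, counted from 1 at its 5′ end. For AGTR1 and NR3C2 the first 30 of the 60 bases are printed, and the AGTR2 and NOX5 probes are printed whole. Capitals mark the stretch of 30 bases that both NOX5 probes hold.
AGTR1 probe 1 (bases 2053 to 2112): ccagtcccaggtagtcgtgttagttttatt
AGTR2 probe 1 (bases 718 to 777): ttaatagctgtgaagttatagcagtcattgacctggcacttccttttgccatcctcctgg
AGTR2 probe 2 (bases 604 to 663): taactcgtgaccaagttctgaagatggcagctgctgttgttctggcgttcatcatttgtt
NR3C2 probe 1 (bases 1089 to 1148): ttaactatgccatgtcgtttctgggatcgt
NR3C2 probe 2 (bases 1003 to 1062): cttagaaacatgttcctgttcctctggata
NOX5 probe 1 (bases 836 to 895): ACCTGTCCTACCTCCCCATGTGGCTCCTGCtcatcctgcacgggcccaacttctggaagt
NOX5 probe 2 (bases 806 to 865): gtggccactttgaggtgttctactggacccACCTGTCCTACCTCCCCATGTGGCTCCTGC
The NOX5 probes overlap, so they are not independent readings of the transcript. The longest run that the 2 probes share was 5 bases for AGTR2 and 6 for NR3C2. The NOX5 probes had a GC content of 60%, a content reached or exceeded by 1.45% of tested probes, while the other members lay between 35% and 45% and the median tested probe had 43.3%.

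Values below are log2 processed signals minus the 75th percentile of the array, so 0 is the level of a probe at that percentile, and signals are in fluorescence units. Brightness differs between probes for reasons other than RNA amount, so levels are compared between arrays within a probe and not between probes. The 75th percentile was 1101 to 1672 units, and 57.3% to 64.1% of probes were well above background on an array. On the first principal component, with 32.1% of the variance, 3 arrays stood apart: the angiotensin II fetuses of sets 7 and 8 (scores 37.4 and 30.1) and the untreated twin of set 2 (39.8). All 3 lay in the same row of slide 2, whose other array, the losartan fetus of set 4, did not stand apart. Their control corner spots had log2 signals of 17.29 to 17.76, against 14.47 to 15.21 on the other 13 arrays. In the losartan arm 3 treated and 1 untreated array lay on slide 2, and in the angiotensin II arm 2 of each did. Every angiotensin II fetus lay in array row 2. The untreated twins of sets 5, 7 and 8 lay in row 1 and that of set 6 in row 2. In that arm treatment and array row thus nearly coincided and can hardly be told apart. The losartan arm had treated and untreated arrays in both rows. The tissue label was checked on the 3 of 24 listed cardiomyocyte genes that had a named probe. TPM1 and MB were above the 99th percentile on every array, and MYH7 lay at the 81.1st to 94.6th. In bulk tissue, fewer cells of a type and less RNA per cell cannot be told apart. Each twin pair was 1 pregnancy per the labels. The limma p-values for treatment effects rest on 1 spread estimate per probe, shared by the 8 twin pairs of both arms. A probe's SE is therefore the same in both arms, even where the pairs of 1 arm scatter more. For AGTR1 the treated minus twin differences had an SD of 0.78 with losartan and 0.42 with angiotensin II.

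All 7 probes were well above background on all 16 arrays. Of all 869 named genes, 455 had a probe that passed the filter for testing, and related gene lists fell on both sides of that share. Of genes with a probe, 1 of 4 of the NADPH oxidase list and 6 of 13 of the mineralocorticoid list passed the filter. In the AT1 signalling list 5 of 8 did, and in the antioxidant list 3 of 3. Of 18 other genes of the angiotensin system listed, 2 had a named probe and 0 passed the filter for testing. The 4 ACE probes were well above background on 0 of 16 arrays, with signals of 22.2 to 43.1 units. NOX1, NOX4 and CYBB, which encode catalytic subunits of other NADPH oxidases, had 2 probes each, and all were well above background on 0 of 16 arrays. The glucocorticoid receptor NR3C1, the closest relative of NR3C2, was well above background on 5 of 16 arrays. HSD11B2, the enzyme that inactivates cortisol before it can reach the mineralocorticoid receptor, was well above background on 0 of 16 with either probe. A probe below that limit has only an upper bound on its signal here.

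**Figure D1:**
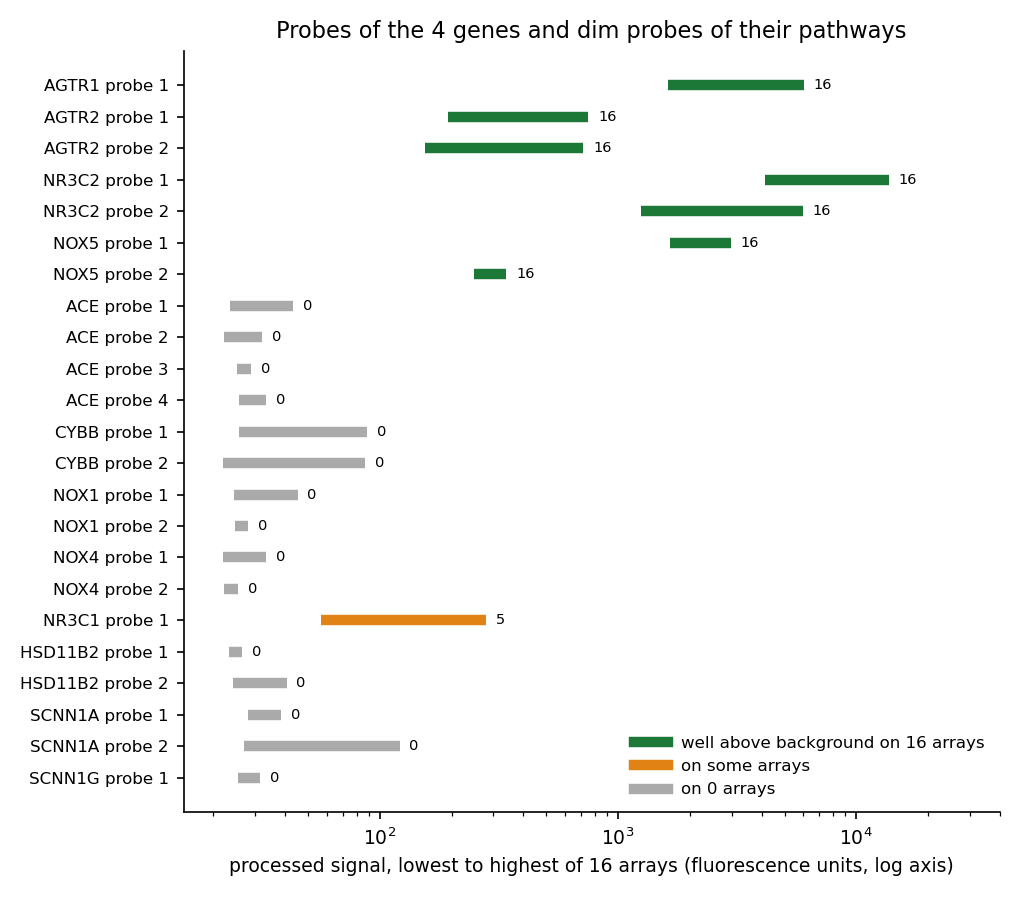
Processed signal of each probe, drawn from its lowest to its highest value over the 16 arrays on a log axis in fluorescence units, with the number of arrays on which it was well above background written beside the bar. The 7 probes of AGTR1, AGTR2, NR3C2 and NOX5 run from 155 to 13724 units and count 16 arrays each, while the ACE, NOX1, NOX4, CYBB and HSD11B2 probes count 0. Bar positions of different probes are not amounts of RNA.

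AGTR1, the AT1 receptor that losartan blocks, had levels of 0.31, 1.29, 1.87 and 0.60 in the angiotensin II fetuses of sets 5 to 8. Their untreated twins had 0.90, 1.21, 1.47 and 0.50. The groups overlapped, and the treated fetus was higher in sets 6, 7 and 8 and lower in set 5. In the losartan fetuses of sets 1 to 4 the levels were 1.51, 1.02, 1.76 and 1.74. Their untreated twins had 2.10, 1.77, 1.68 and 0.78. These groups overlapped too (the losartan arm's groups did not for 6.85% of tested probes), and the treated fetus was lower in sets 1 and 2 and higher in sets 3 and 4. The estimate was 0.00 with angiotensin II (SE 0.26, limma adjusted p = 0.995), a fold of 0.997 with a 95% interval of 0.667 to 1.49. With losartan it was -0.08 (SE 0.26, limma adjusted p = 0.930), a fold of 0.946 with an interval of 0.633 to 1.41. The fit did not exclude changes inside these intervals. With slide as a further block the losartan estimate was -0.33 (limma adjusted p = 0.491). With both slide and the array's row on it as further blocks, the angiotensin II estimate was -0.42 and the losartan estimate -0.15 (adjusted p of 0.877 and 0.699 in limma).

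AGTR1 varied more between fetuses than most probes did. Over the 8 untreated fetuses its SD was 0.55, and 95.02% of tested probes had a smaller one, against a median SD of 0.22. Its signal spanned a 3.47-fold range after scaling over the 16 arrays, while the relative error that the scanner software gave for it was 8.01% to 8.21%. The untreated twins of the angiotensin II arm averaged 1.02 ± 0.42 and those of the losartan arm 1.59 ± 0.56 (SD, n = 4 each). Their difference of -0.56 (SE 0.29) had a limma adjusted p of 1.00, and 6.43% of tested probes had a smaller p. In that comparison 0.0% of tested probes passed and 3.34% had an unadjusted p under 0.05. The treated groups averaged 1.02 ± 0.70 with angiotensin II and 1.51 ± 0.34 with losartan (SD, n = 4 each), and the ranges of all 4 groups overlapped.

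AGTR2, the AT2 receptor, had probe 1 levels of -1.79, -2.37, -2.05 and -1.94 in the angiotensin II fetuses of sets 5 to 8. Their twins had -1.61, -2.03, -1.20 and -1.34. The angiotensin II fetus was lower in 4 of 4 sets, a pattern that 11.0% of tested probes showed in that direction, and the groups overlapped. In losartan fetuses of sets 1 to 4 the levels were -1.90, -1.11, -0.91 and -1.50. Their twins had -2.51, -1.95, -0.97 and -0.92. The losartan fetus was higher in 3 of 4 sets, and the untreated twin of set 1 was the lowest of the 16 arrays.

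The AGTR2 probe 1 estimate was -0.49 with angiotensin II (SE 0.21, limma adjusted p = 0.467), and 9.21% of tested probes had a smaller p. No probe on the array passed in that arm (0.0% of 8970), while 10.4% had an unadjusted p under 0.05. With losartan, where 1.2% of probes passed, the estimate was 0.23 (SE 0.21, limma adjusted p = 0.697). The difference between the 2 effects was -0.72 (SE 0.30, limma adjusted p = 0.215), in a comparison where 1.63% of probes passed. Probe 2 tracked probe 1 closely over the 16 arrays (r = 0.968), although they share no run longer than 5 bases. Its estimates were -0.46 with angiotensin II, lower in 3 of 4 sets, 0.19 with losartan and -0.65 for the difference (limma adjusted p of 0.487, 0.785 and 0.285). Without twin sets 2, 7 and 8, which hold the arrays that stand apart, probe 1 gave -0.26 with angiotensin II, 0.03 with losartan and -0.29 for the difference (limma adjusted p of 0.981, 0.973 and 0.763). With slide and array row as further blocks it gave -0.10 with angiotensin II, 0.24 with losartan and -0.34 for the difference (limma adjusted p of 0.964, 0.372 and 0.441). With slide alone as a further block the difference was -0.90 (limma adjusted p = 0.0896). The losartan estimate was 0.03 without twin set 2 and 0.50 without twin set 4 (limma adjusted p of 0.992 and 0.452).

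AGTR2 was as variable as AGTR1. The SD over the untreated fetuses was 0.56 for probe 1 and 0.60 for probe 2, larger than in 95.4% and 96.2% of tested probes. Relative errors from the scanner software were 8.55% to 13.8% for probe 1 and 8.62% to 16.3% for probe 2. Group means of probe 1 were -2.03 ± 0.24 with angiotensin II and -1.55 ± 0.37 in the untreated twins of that arm, and -1.35 ± 0.44 with losartan and -1.59 ± 0.78 in the untreated twins of that arm (SD, n = 4 each). The ranges of all 4 groups overlapped.

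**Figure D2:**
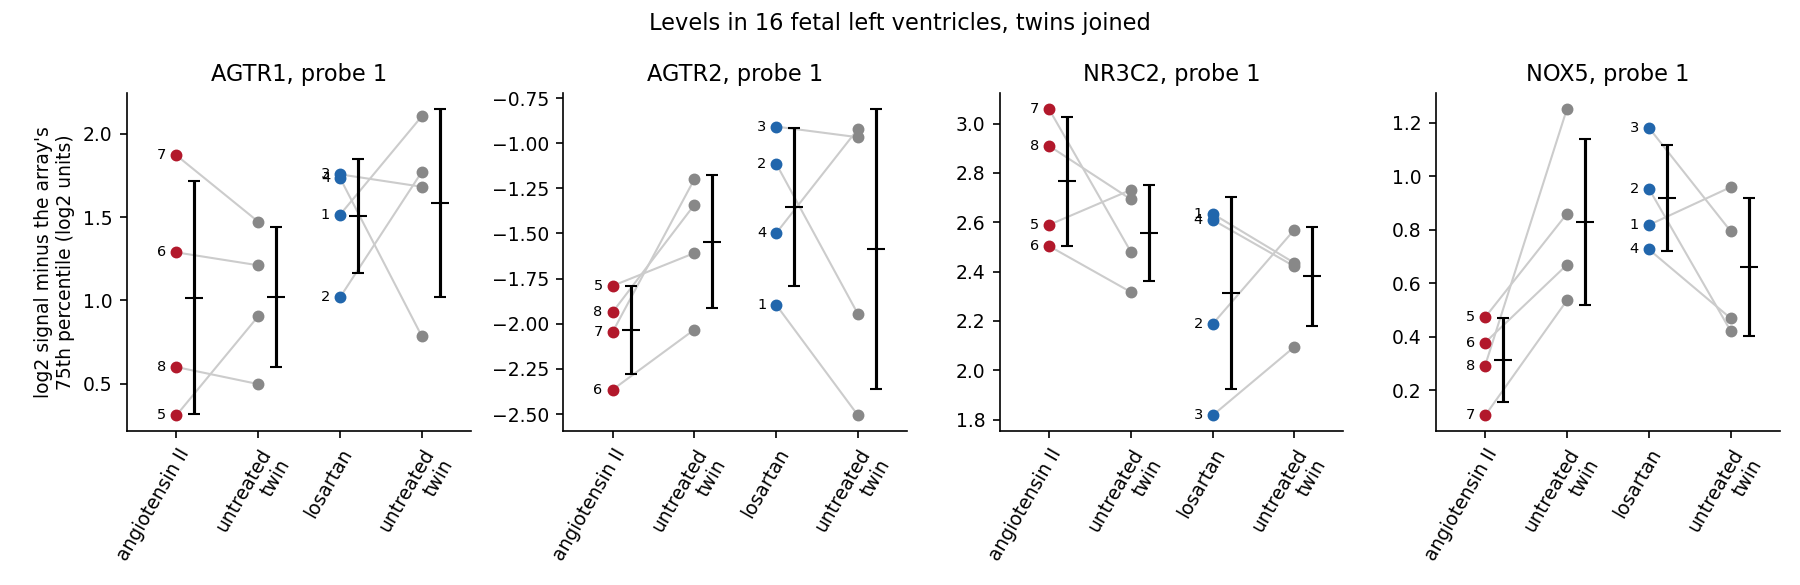
Levels of the brighter probe of each gene (y axis, log2 signal minus the 75th percentile of the array) in the 4 groups, with dots for fetuses, grey lines joining twins, the twin set number beside the treated fetus, and black bars for the group mean ± SD (n = 4). For NOX5 the 4 angiotensin II fetuses lie between 0.10 and 0.47, below all 4 of their untreated twins at 0.54 to 1.25, while the groups of each arm overlap for AGTR1, AGTR2 and NR3C2.

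The log2 difference between the AGTR1 probe and AGTR2 probe 1 on the same array does not depend on how the array is scaled. Slide or array row effects that differ between the probes would remain in it, and it was not fitted with these as blocks. With both as blocks, the separate angiotensin II estimates were -0.42 for AGTR1 and -0.10 for AGTR2 probe 1. In the angiotensin II arm the difference moved by -0.41, 0.41, 1.25 and 0.70 in sets 5 to 8, a mean of 0.49 ± 0.69 (SD, n = 4; exact sign-flip permutation test, two-sided p = 0.375). In the losartan arm it moved by -1.20, -1.59, 0.02 and 1.53 in sets 1 to 4, a mean of -0.31 ± 1.40 (SD, n = 4; exact sign-flip permutation test, two-sided p = 0.75). With 4 pairs the smallest p this test allows is 0.125. The arms differed by 0.80, within the spread between pairs (exact permutation of arm labels, two-sided p = 0.343, smallest possible 0.0286). With AGTR2 probe 2 the means were 0.46 and -0.27, and the exact p-values were 0.375 and 1.00. Without twin sets 2, 7 and 8 the means were 0.00 with angiotensin II and 0.11 with losartan, and their difference was -0.11.

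The twin ratios of AGTR1 and AGTR2 probe 1 had opposite signs in 6 of 8 sets, as did those of AGTR2 with NR3C2 and of NR3C2 with NOX5. In sets 1 and 2 AGTR1 was lower by 0.59 and 0.75 in the treated fetus while AGTR2 probe 1 was higher by 0.61 and 0.83. In sets 4 and 7 AGTR1 was higher by 0.95 and 0.40 while AGTR2 was lower by 0.58 and 0.85. With AGTR2 probe 2 the signs were opposite to those of AGTR1 in 8 of 8 sets, where several values lay close to 0. Over the 8 sets Pearson's r was -0.78 and Spearman's rho -0.86 with probe 1 (exact permutation p = 0.0218 and 0.0107, two-sided). This test was not among the planned comparisons. It permutes sets across both arms, so differences between the arms can enter its p-values. Adjusted over the 6 gene pairs among the 4 genes, these exact permutation p-values became 0.131 and 0.0551, so the relation did not pass. Spearman's rho was -0.76 for AGTR2 with NR3C2, -0.76 for NR3C2 with NOX5 and 0.76 for AGTR2 with NOX5. Each had an exact permutation p of 0.0368, which the adjustment brought to the same 0.0551. The adjustment can give unequal p-values the same adjusted value, so this tie does not show that the pairs are alike. For Pearson's r the adjusted exact permutation p was 0.131 for AGTR1 with AGTR2 and 0.176 for each of these pairs. None of them passed. Over the 5 sets without sets 2, 7 and 8, Pearson's r was -0.72 for AGTR1 with AGTR2. For AGTR2 with NR3C2, NR3C2 with NOX5 and AGTR2 with NOX5 it was -0.07, -0.26 and -0.10. These r values over 5 sets are a description and were not tested. Without sets 2 and 4, the farthest from the median of AGTR1, r was -0.75 over 6 sets. With probe 2, r was -0.84 and rho -0.81 (exact permutation p = 0.00947 and 0.0218). Of all tested probes, 1.90% had a lower r with AGTR1 than AGTR2 probe 1 did. Over levels on the 16 arrays the correlation was weak (r = -0.18), so the pattern lies in the twin differences. Each arm holds 4 sets, and sets 2, 3, 6 and 8 had both twins on 1 slide. The relation was not tested within either split.

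**Figure D3:**
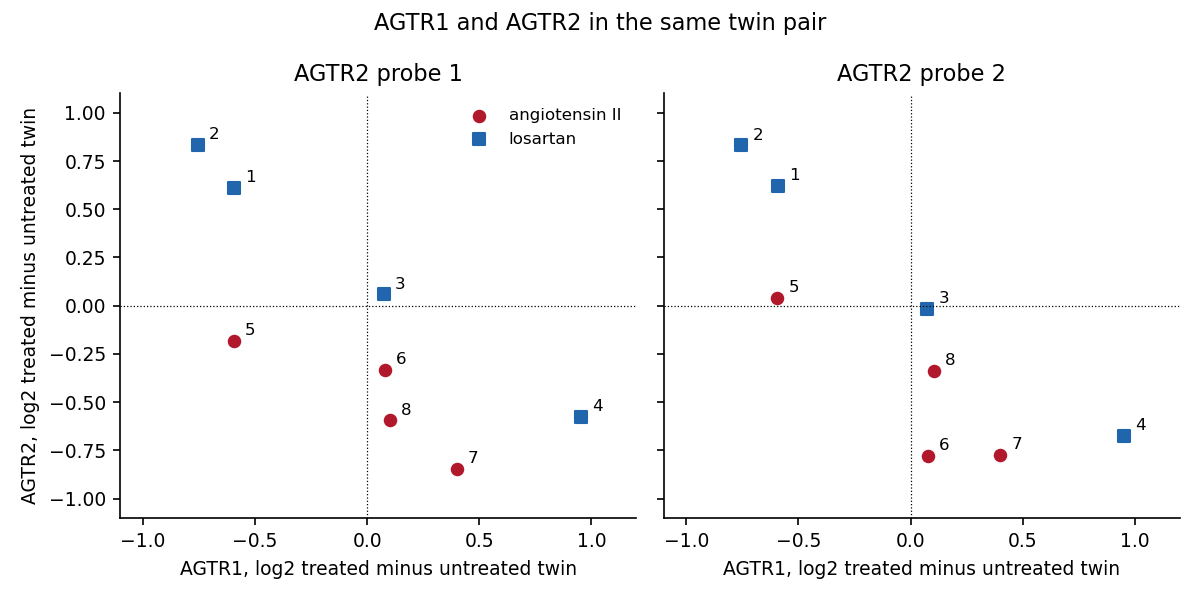
Log2 difference of treated fetus minus untreated twin for AGTR1 (x axis) and AGTR2 (y axis), with 1 point per twin set, numbered, for angiotensin II and losartan. The left panel uses AGTR2 probe 1 (r = -0.78 over 8 sets) and the right panel probe 2 (r = -0.84), and sets 1 and 2 stand at the upper left with sets 4 and 7 at the lower right in both.

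NR3C2, the mineralocorticoid receptor, had the smallest SD over the untreated fetuses among the brighter probes of the 4 genes (0.21). Probe 1 had 2.59, 2.50, 3.06 and 2.91 in the angiotensin II fetuses of sets 5 to 8. Their twins had 2.73, 2.32, 2.48 and 2.69. The treated fetus was higher in 3 of 4 sets, and the fetuses of sets 7 and 8 had the highest and second highest values of all 16 arrays. In losartan fetuses of sets 1 to 4 the levels were 2.63, 2.19, 1.82 and 2.61, with the lowest array of all in set 3. Their twins had 2.43, 2.57, 2.09 and 2.42. The groups overlapped in both arms, with losartan fetuses higher in sets 1 and 4 and lower in sets 2 and 3.

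The NR3C2 probe 1 estimates were 0.21 with angiotensin II (SE 0.14, limma adjusted p = 0.551) and -0.07 with losartan (SE 0.14, limma adjusted p = 0.885). As folds they were 1.16 with a 95% interval of 0.924 to 1.45, and 0.954 with an interval of 0.762 to 1.19. The effects differed by 0.28 (SE 0.20, limma adjusted p = 0.444). Probe 2, which followed probe 1 at r = 0.902 over the 16 arrays, gave 0.26 with angiotensin II, -0.25 with losartan and 0.51 for the difference (limma adjusted p of 0.598, 0.656 and 0.328). Without twin sets 2, 7 and 8 the probe 1 estimates were 0.02, 0.04 and -0.01. The slides differed for this gene. Probe 1 averaged 2.67 ± 0.26 on slide 2 and 2.33 ± 0.26 on slide 1 (SD, n = 8 each), a difference of 0.34, and probe 2 differed by 0.48. With slide as a further block the estimates were 0.21 with angiotensin II and -0.28 with losartan. Their difference of 0.49 had a limma adjusted p of 0.0677. Slide was balanced in the angiotensin II arm, so this block cannot move the estimate of that arm. With slide and array row as blocks the estimates were 0.18, -0.26 and 0.45 for the difference (limma adjusted p = 0.267). Within slide 1 the difference was 0.65 and within slide 2 it was 0.37 (limma adjusted p of 0.428 and 0.374), with 1 losartan array on slide 1 and 1 untreated array of that arm on slide 2. The SD of probe 2 over the untreated fetuses was 0.36. Group means of probe 1 were 2.77 ± 0.26 with angiotensin II and 2.56 ± 0.19 in its untreated twins, and 2.31 ± 0.39 with losartan and 2.38 ± 0.20 in its untreated twins (SD, n = 4 each), and the ranges of all 4 groups overlapped.

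NOX5 probe 1 had 0.47, 0.38, 0.10 and 0.29 in the angiotensin II fetuses of sets 5 to 8. Their untreated twins had 0.86, 0.67, 0.54 and 1.25. The 2 groups did not overlap, which held for 4.02% of tested probes in either direction. In losartan fetuses of sets 1 to 4 the levels were 0.82, 0.95, 1.18 and 0.73. Their untreated twins had 0.96, 0.42, 0.79 and 0.47. The losartan groups overlapped, with the treated fetus higher in sets 2, 3 and 4 and lower in set 1. Group means were 0.31 ± 0.16 with angiotensin II and 0.83 ± 0.31 in its untreated twins, and 0.92 ± 0.20 with losartan and 0.66 ± 0.26 in its untreated twins (SD, n = 4 each). The angiotensin II range overlapped that of the losartan arm's untreated twins alone.

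The NOX5 probe 1 twin ratios with angiotensin II were -0.39, -0.29, -0.43 and -0.96 in sets 5 to 8, and 11.0% of tested probes were below 0 in all 4 sets. The estimate was -0.52 (SE 0.14, limma adjusted p = 0.451), a fold of 0.699 with a 95% interval of 0.560 to 0.872. Of tested probes, 1.06% had a smaller p, and none passed the adjusted threshold. With losartan the twin ratios were -0.14, 0.53, 0.39 and 0.26, and the estimate was 0.26 (SE 0.14, limma adjusted p = 0.499). The ratios of the arms did not overlap, as in 12.4% of tested probes. The difference between the effects was -0.78 (SE 0.20, limma adjusted p = 0.0957), which did not pass, although 146 other probes (1.63%) did. In that comparison 3.61% of tested probes had a smaller p.

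NOX5 probe 2, the dimmer probe that shares 30 bases with probe 1, gave smaller estimates with the same signs. Its twin ratios were -0.04, 0.01, -0.37 and -0.27 with angiotensin II and -0.27, 0.47, 0.21 and 0.04 with losartan. The values of sets 5 and 6 were near 0 on this probe, where probe 1 gave -0.39 and -0.29. Estimates were -0.17 with angiotensin II, 0.11 with losartan and -0.28 for the difference (limma adjusted p of 0.591, 0.767 and 0.391). The probes correlated at r = 0.798 over the 16 arrays. Probe 1 signals were 1651 to 2967 units with a relative error of 8.03% to 8.11%, and probe 2 signals were 247 to 340 units with a relative error of 11.3% to 13.5%.

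**Figure D4:**
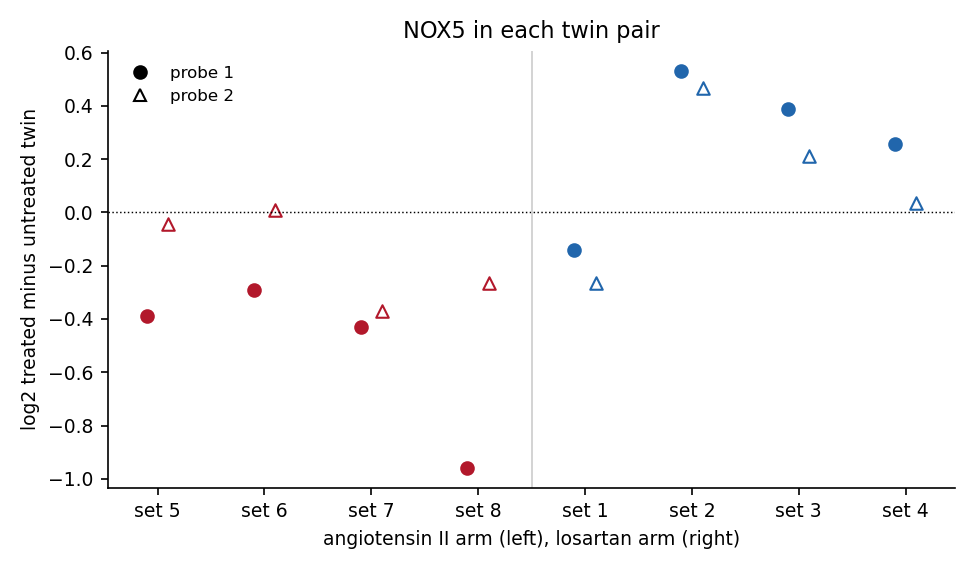
Log2 difference of treated fetus minus untreated twin for NOX5 in each twin set, with filled circles for probe 1 and open triangles for probe 2, the angiotensin II arm at the left and the losartan arm at the right. Probe 1 is below 0 in all 4 angiotensin II sets (-0.96 to -0.29) and above 0 in 3 of 4 losartan sets, and probe 2 is near 0 in sets 5 and 6.

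The arrays that stand apart were among the low ones for NOX5 probe 1. The angiotensin II fetuses of sets 7 and 8 ranked 16th and 15th of 16 arrays from the highest, and the untreated twin of set 2 ranked 13th. Without twin sets 2, 7 and 8 the estimates were -0.34 with angiotensin II (limma adjusted p = 0.952), 0.17 with losartan (0.672) and -0.51 for the difference (0.377). With slide as a further block the difference was -0.85 (limma adjusted p = 0.0544). Slide and array row as blocks gave -0.51 with angiotensin II, 0.33 with losartan and -0.84 for the difference (limma adjusted p of 0.788, 0.369 and 0.219). Values within a slide do not pair the sets. On slide 2 both angiotensin II arrays and the 1 untreated array of the losartan arm are the 3 that stand apart, and on slide 1 the losartan arm has 1 treated array, so the fit assumes that a lone array varies like the other groups. Within slide 2 the angiotensin II estimate was -0.86 (limma adjusted p = 0.0458; 3.94% of probes passed). The difference between effects within slide 2 was -1.27 (limma adjusted p = 0.0196; 20.9% passed). Within slide 1 the angiotensin II estimate was -0.18 (limma adjusted p = 0.998) and the difference -0.62 (0.478). In the value table deposited with the series, for which no source used here gives a method, the difference between effects passed for NOX5 (-0.79, limma adjusted p = 0.0194), AGTR2 (-0.59, 0.0467) and NR3C2 (0.59, 0.0159), and 19.3% of all tested probes passed with it.

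**Figure D5:**
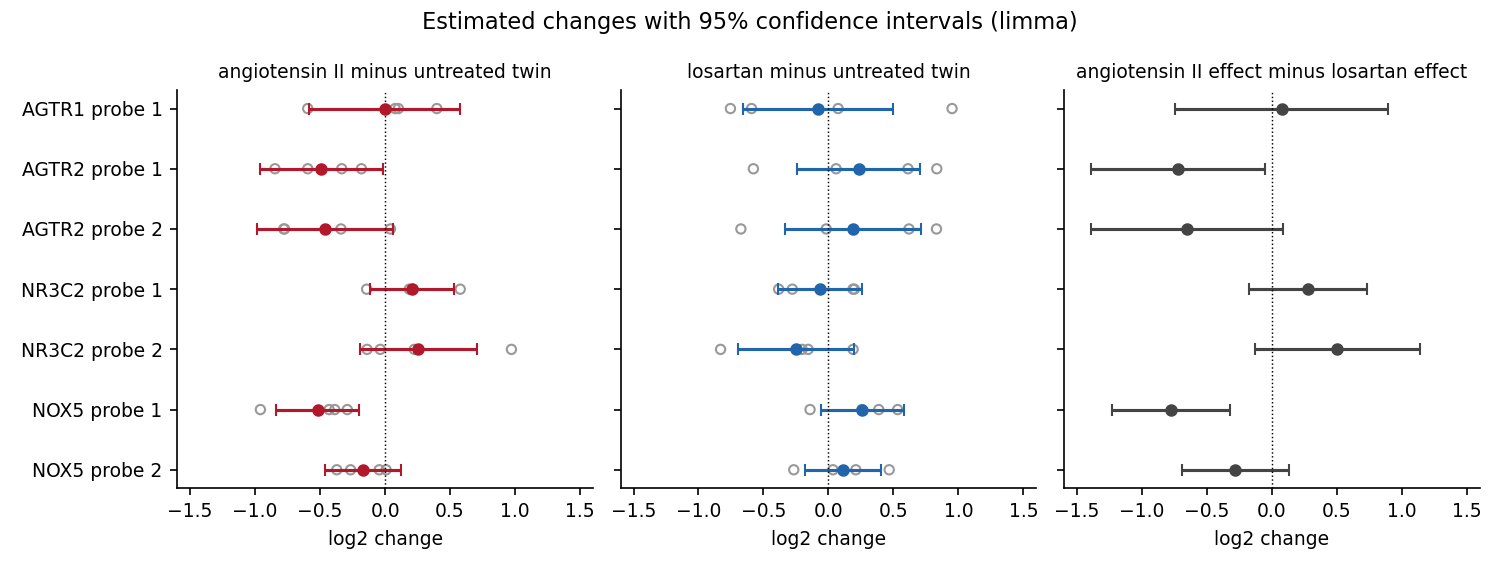
Estimated log2 changes of the 7 probes for angiotensin II minus untreated twin, losartan minus untreated twin, and the angiotensin II effect minus the losartan effect, as filled points with 95% confidence intervals from limma that are not adjusted for the number of probes, and open circles for single twin sets. The intervals of NOX5 probe 1 and AGTR2 probe 1 with angiotensin II lie below 0 (-0.84 to -0.20 and -0.96 to -0.02), and neither passed after adjustment.

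Few other genes of these pathways passed the threshold. Of 22 other mineralocorticoid and corticosteroid genes listed, 13 had a probe and 6 were tested, and none passed in any comparison. With angiotensin II, 1 was above 0 and 5 below (median -0.08, against -0.03 over all tested probes), and with losartan 5 were above and 1 below (median 0.09, against 0.01). HSD11B1, which regenerates cortisol, had an estimate of -0.14 with angiotensin II (limma adjusted p = 0.541). It was lower in 4 of 4 sets there, like 11.0% of tested probes. With losartan it had 0.22, higher in 4 of 4 sets like 10.5% of tested probes (limma adjusted p = 0.377). CYP17A1, a steroid hydroxylase, had -0.07 with angiotensin II and 0.09 with losartan, and ATP1B1, a subunit of the sodium pump that corticosteroids regulate in epithelia, had 0.00 and 0.20 (limma adjusted p of at least 0.587). Of 16 other genes of the NADPH oxidases, RAC1, the GTPase that activates several of them but not NOX5, was the tested member, with 0.11 for angiotensin II and -0.10 for losartan (limma adjusted p of 0.651 and 0.752). The antioxidant genes SOD1, SOD2 and TXN, 3 of 21 listed, did not pass either. TXN, which encodes thioredoxin, had 0.10 with angiotensin II (limma adjusted p = 0.768). Its losartan estimate was -0.30, lower in 4 of 4 sets like 11.1% of tested probes (limma adjusted p = 0.430). SOD1 and SOD2, the cytosolic and mitochondrial superoxide dismutases, had 0.26 and 0.13 with angiotensin II and 0.06 and 0.15 with losartan.

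Among genes of AT1 signalling and its responses, 8 of 36 listed had a probe and 5 were tested. Their differences between effects were above 0 for 2 and below 0 for 3 (median -0.06, against -0.03 over all tested probes). CCN2, which encodes a matrix-associated growth factor, passed in the difference between effects, where 1.63% of tested probes did, at 1.49 (SE 0.28, limma adjusted p = 0.0337), with 0.59 for angiotensin II and -0.90 for losartan. FOS, an immediate early transcription factor, had 0.57 and -0.82 (difference 1.39, limma adjusted p = 0.0638). EGR1, another immediate early transcription factor, had the opposite signs, at -0.26 and 0.23 (difference -0.50, limma adjusted p = 0.161). RGS2, which limits Gq signalling, was above the twin in 4 of 4 sets of both arms, by 0.30 with angiotensin II, where 7.79% of tested probes were above 0 in all sets, and by 0.36 with losartan (limma adjusted p of 0.483 and 0.369). Of 28 other vasoactive and growth factor receptor genes, 12 had a probe and 6 were tested. None passed. The differences between effects were above 0 for 5 and below 0 for 1, with a median of 0.42, against -0.03 over all tested probes. PTGER3, a prostaglandin E2 receptor, had 0.14 with angiotensin II and -0.51 with losartan, with adjusted p of 0.578 and 0.0564 in limma. ADRB1, the cardiac beta-1 adrenoceptor, had 0.38 and -0.41, and IGF1R, the IGF-1 receptor, 0.66 and -0.56 (limma adjusted p of at least 0.298). PTGER1, another prostaglandin E2 receptor, had the largest difference of the 6 in size and the opposite sign, with -1.06 for angiotensin II, 0.63 for losartan and -1.69 for the difference (limma adjusted p of 0.483, 0.668 and 0.232). EGR1 and PTGER1 fell outside the rule for named genes and were chosen after their values were seen.

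Smooth muscle markers were lower with losartan. The mean level of the 3 smooth muscle genes with a probe (CNN1, MYL9 and MYLK, of 7 listed) was 3.01 to 3.77 in angiotensin II fetuses and 2.42 to 3.102 in their twins, and 1.52 to 2.15 in losartan fetuses and 2.45 to 3.31 in their twins. CNN1 fell by 1.42 and MYL9 fell by 1.06 with losartan (limma adjusted p of 0.0249 and 0.00853), while MYLK was at -0.36 and did not pass. With angiotensin II none of the 3 passed, at 1.09 for CNN1, 0.93 for MYL9 and -0.20 for MYLK (limma adjusted p of 0.447, 0.426 and 0.863). CNN1 and MYL9 passed in the difference between effects, at 2.51 and 1.99 (limma adjusted p of 0.00868 and 0.00206). The mean of the 4 fibroblast genes with a probe (COL1A1, COL1A2, COL3A1 and DCN, of 9 listed) was -0.67 to 0.24 in angiotensin II fetuses and -0.72 to -0.22 in their twins, and -0.61 to -0.46 in losartan fetuses and -0.45 to 0.48 in their twins. The losartan groups did not overlap, by a narrow margin, and 6.85% of single tested probes did not overlap in that arm. All 4 fibroblast genes had estimates below 0 with losartan, as did 4349 of 8970 tested probes (median of the 4 -0.27). All 4 were above 0 for the difference between effects, as were 4210 of 8970 (median of the 4 0.62). With angiotensin II 2 were above 0 and 2 below (median 0.26). None passed in any of these comparisons. Endothelial levels (PECAM1 and KDR) were -0.48 to -0.01 in angiotensin II fetuses and -0.49 to 0.01 in their twins, and -0.67 to -0.01 with losartan and -0.41 to 0.00 in their twins. The ranges for cardiomyocyte (MYH7, TPM1 and MB), leukocyte (CD14 and CD3E) and erythroid (HBB) genes overlapped in both arms. The part of these cell types in the AGTR1, AGTR2, NR3C2 and NOX5 values was not tested.

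For each member, genes with the most similar pattern over the 16 arrays were taken from 451 other named tested genes, as a description. NOX5 had the closest neighbours: RPS6, a ribosomal protein (r = 0.90, and 0.81 over 10 arrays without twin sets 2, 7 and 8), AQP2, a water channel known from the kidney (0.88 and 0.76), and CCL25, a chemokine (0.87 and 0.80). Among all tested probes 1.56% had r of at least 0.8 with NOX5 probe 1, against 0.257% with NR3C2, 0.0335% with AGTR2 and none of 8964 with AGTR1. The shares for NR3C2 and AGTR2 include the gene's own probe 2 (r = 0.902 and 0.968), and AGTR1 has no other probe. NR3C2 was most like LOC100147796 (0.77), the ornithine decarboxylase gene ODC1 (0.75) and the Wnt receptor gene FZD3 (0.74). AGTR2 was similar to GRPEL1, a mitochondrial co-chaperone (0.68), and to PANK2, a pantothenate kinase (0.67). AGTR1 had no near neighbour, with CYTH2 at 0.55, the metallothionein MT3 at 0.50 and the proteoglycan DCN at 0.49, and MT3 reached 0.90 over the 10 arrays. All values share arrays and scaling.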

How the data were processed

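Total RNA was labelled with Cy5 and hybridized to 1-colour Agilent sheep arrays, per the labels' protocols (RNA integrity numbers 7.5 to 10). The deposited scanner files hold spot intensity in fluorescence units from Agilent Feature Extraction 10.7.3.1, background-subtracted and detrended but not scaled between arrays, per the file headers. The series' deposited value table matched the natural log of mean spot signals (r of at least 0.998 per array, column medians 5.79 to 5.80). No source used here says how it was made, and it served as an alternative on the log2 scale.

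Control and outlier spots were left out, spots of a probe were averaged, and the 75th percentile of each array was subtracted on the log2 scale. Tests covered the 8970 of 15008 probes that all arrays of at least 1 group put well above background. NR3C2 and AGTR2 were identified by the files' descriptions, and other names came from the files and RefSeq's gene table (assembly ARS-UI_Ramb_v3.0): 1408 probes had a name. The brighter probe, numbered 1, stands for a gene.

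All 16 arrays were fitted together in limma 3.58.1 (statmod 1.5.0, R 4.3.3), with twin set (8 levels) as a fixed block. Tests were two-sided, with Benjamini-Hochberg adjustment and a threshold of 0.05. The fit left 6 residual degrees of freedom (prior 3.67). Untreated twins were compared between arms over 8 arrays without a block. Exact permutation tests and figures used Python 3.11.15, numpy 2.4.6, pandas 2.3.3 and matplotlib 3.10.9. The fit was also run on simulated data with known effects. Their noise was independent between arrays, so that run does not cover slide, array row or the arrays that stand apart. The pairing comes from the labels' twin sets; deviations of twins from their group means correlated at 0.22, 0.24, 0.46, 0.08, -0.04, 0.28, 0.15 and 0.53 in sets 1 to 8.

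The members and gene lists were chosen with earlier results of these data known. Named were all member probes, up to 3 genes per list with the smallest unadjusted p in either arm, and the 3 genes most like each member. Withheld items that this rule selects are not reported here. Alternatives covered background correction, scaling, the dim-probe filter, the blocks, slides, left-out twin sets and the mean over a gene's probes.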

Additional observations from a re-analysis of the deposited data

How the results depend on the processing

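Signs held under all alternatives run for AGTR2 and NOX5 in both arms and for the difference between them, but AGTR2 with angiotensin II came to -0.10 with slide and array row as blocks. Some alternatives cannot move an estimate, so the same sign there carries no information. These are the probe filters, the fits with no block or a random block, and, within an arm, leaving out a set of the other arm. Slide as a further block likewise cannot move an angiotensin II estimate, because slide was balanced in that arm. The member values that passed the threshold were, within slide 2, NOX5 with angiotensin II (-0.857) and its difference between effects (-1.27), and, in the deposited value table, the differences of AGTR2 (-0.593), NR3C2 (0.590) and NOX5 (-0.792). AGTR1, close to 0, changed sign with losartan within slide 1 (0.233) and without sets 2, 7 and 8 (0.145). With angiotensin II it changed sign under normexp background correction (0.0669), in the deposited table (0.0649) and within slide 2 (0.535). Its difference changed sign with slide and array row as blocks (-0.269), within slide 1 (-0.776) and without sets 2, 7 and 8 (-0.403). Without those sets NR3C2 turned to 0.0369 with losartan and -0.0145 for the difference, and AGTR1 minus AGTR2 to 0.113, -0.00125 and -0.115 with losartan, angiotensin II and for the difference. In the untreated twins AGTR2 turned to -0.0418 under normexp and -0.0107 as the mean of its probes. Leaving out 1 twin set at a time gave AGTR1 -0.42 to 0.14 with losartan, -0.14 to 0.19 with angiotensin II and -0.15 to 0.42 for the difference, NR3C2 -0.16 to 0.04 with losartan and 0.09 to 0.33 with angiotensin II, AGTR2 0.03 to 0.50 and NOX5 0.17 to 0.39 with losartan, AGTR2 in untreated twins -0.27 to 0.26, and AGTR1 minus AGTR2 -0.93 to 0.11 with losartan.

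The number of probes passing depended on the fit. Within slides the losartan arm has 1 treated array (slide 1) or 1 untreated array (slide 2), taken to vary like the other groups. With losartan 108 passed, against 434 in the deposited table, 58 with probes well above background on all 16 arrays, 71 with slide as a block, and 41 and 548 within slides 1 and 2. With no replicate block 0 passed (limma), and with the twin set as a random replicate block 68. Leaving out 1 set gave 32 to 99, with 64, 32 and 49 without sets 1, 3 and 4. With angiotensin II 0 passed (limma; 937 at an unadjusted p under 0.05), against 353 within slide 2 and 1 without sets 2, 7 and 8. For the difference 146 passed, against 1733 in the deposited table, 3 with no replicate block, 426 with slide as a block, 38 and 1879 within slides 1 and 2, and 74 without sets 2, 7 and 8. Leaving out 1 set gave 48 to 111, with 86, 59, 78, 69, 54 and 48 without sets 1, 3, 4, 6, 7 and 8. In the untreated twins it gave 0 to 1 (limma), 1 without set 7. The replicate block changed no call of a member. The causes of these shifts were not tested. The number of arrays limits the precision, and members' signals stood well above background on every array.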
